A study of Mus musculus with 4 samples.

Results

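Gatm, Gab1, Rasgrf1, Htr2a, Slc38a4 and Zdbf2 are genes known to be imprinted in some mouse tissues and not in others, and their allele specific counts were examined here in gonadal adipose tissue. The members were taken by gene symbol, as every exonic and intronic SNP assigned to one of these 6 genes, among the 11229 genes with any counted SNP. They held 112 of the 305528 SNPs of the series, 21 in exons and 91 in introns, and 7990 genes had exonic reads and were tested. The tissue came from chow-fed F1 mice of reciprocal crosses between C57BL/6J (B) and DBA/2J (D), named with the mother's strain first, so that the B allele is maternal in BxD mice and paternal in DxB mice. RNA was pooled by cross and sex into 4 libraries, BxD female (3 animals), BxD male (3 animals), DxB female (2 animals) and DxB male (3 animals), of mice whose age the labels give as 8 weeks and the methods of the study as older. Each pool is a single library, so the spread between animals was not measured and every spread below is the spread between pools that also differ in cross or sex.

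The sample labels and the file names exchange the identity of the BxD male and DxB female pools. The file-name identity is used throughout, because it defines the members' pools, and values under the label identity are given beside a result or at the end. Meg3, an imprinted RNA read from the maternal chromosome, had 38 B and 0 D reads in BxD females, 32 B and 0 D reads in BxD males, 1 B and 25 D reads in DxB females and 0 B and 17 D reads in DxB males under the file names. Under the labels, the Meg3 reads of the exchanged pools would be almost all paternal, so Meg3 follows the file names for the cross. Meg3 does not tell the sex of a pool. The pools held between 3353668 and 4254813 counted exonic reads and between 428955 and 711387 counted intronic reads, and the D allele took 45.7% to 46.9% of the exonic reads in each. Over the 6921 genes with at least 10 exonic reads the median D share was 47.6% (quartiles 40.4% and 52.2%) and the median paternal share was 49.8% (quartiles 47.4% and 51.7%). Of 10 adipocyte markers, the 3 with SNP reads (Lpl, Cidec and Lep) summed to between 42767 and 57269 CPM (reads scaled to the counted exonic reads of the pool), while none of the 5 pancreas markers had a read, the 2 detected nerve markers (Gfap and Tubb3) summed to 0.596 to 7.52 CPM and Wt1, of mesothelium, ranged from 15.8 to 82.7 CPM. Macrophage markers (Cd68 and Cd14) summed to 282 to 553 CPM, Pecam1 of endothelium ranged from 36.4 to 51.9 CPM and Esr1, from the list for ovary and uterus, from 50.1 to 91.2 CPM, while the lists for epididymis, kidney and placenta reached at most 5.37 CPM in a pool. Reads were counted only at SNPs, so a marker without a read is not shown to be absent from the tissue. For the same reason these values cannot be compared between genes or lists. In bulk tissue fewer cells of a type and less RNA per cell cannot be told apart.

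At an imprinted gene the parental chromosomes carry different epigenetic marks set in the germ line, and the gene is transcribed mainly from the chromosome of one parent. Reciprocal crosses separate this from a sequence effect, since an imprinted gene changes its overexpressed allele when the cross is turned around, whereas a strain effect keeps the same allele in both crosses. Several imprinted genes show this only in placenta, yolk sac or brain and are read from both chromosomes elsewhere. Gatm encodes the enzyme of the first step of creatine synthesis and is known for maternal expression in placenta and yolk sac. Gab1, an adaptor protein of receptor tyrosine kinases, and Slc38a4, a system A amino acid transporter, are known for paternal expression in placenta. Rasgrf1, a guanine nucleotide exchange factor that activates Ras, and Zdbf2, a zinc finger protein, are known for paternal expression in brain. Htr2a is the serotonin 2A receptor.

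The SNPs at which the alleles were told apart are shown for the coding exons of Rasgrf1 and Gatm, because the exonic reads of Rasgrf1 and most of those of Gatm lie on them. Each line is a stretch of 24 to 29 bases of the mm9 reference inside the exon, in the direction of transcription, with the SNP in capitals, first with the B base and then with the D base. The Rasgrf1 SNPs lie 90 bp apart in exon 14 of 27 of the longest coding transcript (plus strand), at chr9:89886394 and chr9:89886484, and are synonymous. The Gatm SNPs are synonymous and lie in exons 9, 6 and 4 of 9 (minus strand), at chr2:122421296, chr2:122426124 and chr2:122428331.
Rasgrf1 chr9:89886380-89886408 B: aaagtgcttcagatCcgctatgccagcgt
Rasgrf1 chr9:89886380-89886408 D: aaagtgcttcagatTcgctatgccagcgt
Rasgrf1 chr9:89886470-89886498 B: ttcctgcattcctaTcgcgtcttcaccaa
Rasgrf1 chr9:89886470-89886498 D: ttcctgcattcctaCcgcgtcttcaccaa
Gatm chr2:122421282-122421310 B: aattccctgggaggAggcttccactgctg
Gatm chr2:122421282-122421310 D: aattccctgggaggTggcttccactgctg
Gatm chr2:122426115-122426138 B: aaccccgaccgtccCtgtcatcag
Gatm chr2:122426115-122426138 D: aaccccgaccgtccTtgtcatcag
Gatm chr2:122428317-122428345 B: tttgagtaccgagcGtacaggtcaattat
Gatm chr2:122428317-122428345 D: tttgagtaccgagcAtacaggtcaattat
Apart from 1 synonymous SNP of Zdbf2, the remaining exonic SNPs of the 6 genes lay in untranslated regions. At all 112 SNPs the mm9 base was the B base, and no intronic SNP of these genes fell in an annotated exon of another gene.

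The allele that was read differed among the 6 genes. Gatm was overexpressed from the D allele in both crosses, Gab1 was read from both alleles at close to equal shares, and the few exonic reads of Rasgrf1 and Zdbf2 all came from the paternal chromosome. Htr2a had reads of both alleles from both parents, and Slc38a4 had B reads only. Apart from Gatm and Gab1 the counts were small, with 19 exonic reads for Rasgrf1, 17 for Htr2a, 8 for Slc38a4 and 6 for Zdbf2. In the edgeR quasi-likelihood test with Benjamini-Hochberg adjustment over the 7990 genes (threshold 0.05), 1 of the 6 members passed for strain (Gatm), against 17.7% of all genes tested, with 4.84% of all genes higher from D and 12.9% higher from B. These calls were 387 from D and 1028 from B, and with 1 library size per pool for both alleles they were 236 and 1172, while the median log2 ratio of all genes moved from -0.02 to -0.15 and that of Gatm from 1.61 to 1.49. With the pool as a block 2175 genes passed in place of 1415, and Gatm was again the 1 member among them. None of the 6 passed for parent of origin, against 0.0501% of all genes (4 genes), while 2 of the 6 (Rasgrf1 and Zdbf2) had an unadjusted p under 0.05 in edgeR and 1 (Rasgrf1) in DESeq2, where no member passed either. Over all genes 44 had such a p in edgeR and 23 in DESeq2. With the pool as a block the unadjusted p was 0.0734 for Rasgrf1 and 0.181 for Zdbf2 in edgeR.

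**Figure D1:**
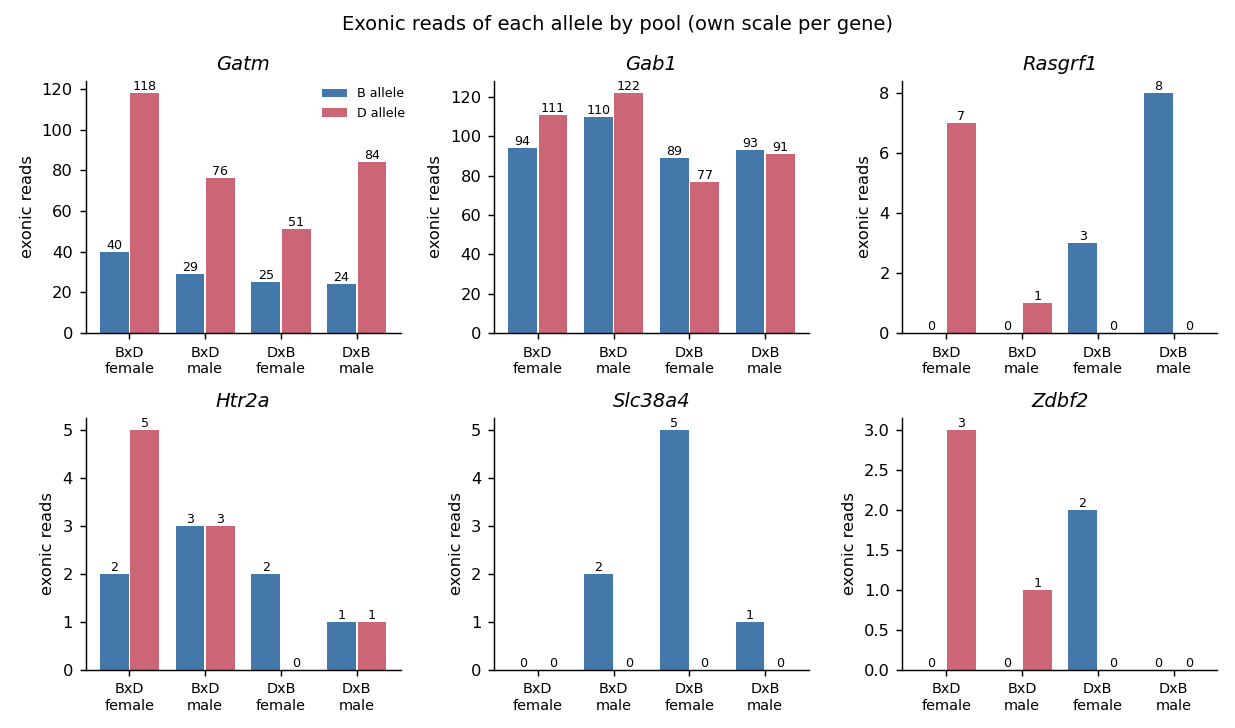
Exonic reads (vertical axis, read counts, with its own scale per gene) of the B allele (blue) and the D allele (red) of each gene in the 4 pools, with the count above each bar. The D bar of Gatm is higher in all 4 pools, while the 19 reads of Rasgrf1 and the 6 reads of Zdbf2 change from D in BxD pools to B in DxB pools.

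Gatm (ENSMUSG00000027199.8, chr2:122420203-122437039, minus strand) was overexpressed from the D allele whichever parent gave it. BxD females had 40 B and 118 D exonic reads, BxD males 29 and 76, DxB females 25 and 51, and DxB males 24 and 84. The D reads outnumbered the B reads in every pool, and the D share ran from 67.1% in DxB females to 77.8% in DxB males, with a mean of 73.0% ± 4.50 (SD, n = 4 pools). The log2 ratio of D to B was 1.61 (SE 0.25, edgeR adjusted p = 0.000541). Over the 4 pools 329 of 447 exonic reads carried the D base, a share of 73.6% (95% Wilson interval 69.3% to 77.5%). Both mates of a fragment could be counted and PCR copies were not stated to be removed, so this and the later intervals and limits cover counting error only.

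Gatm did not pass the parental test on the same reads. Maternal reads numbered 204 and paternal reads 243, the log2 ratio of maternal to paternal was -0.11 (SE 0.60, edgeR adjusted p = 0.9998), and the paternal share was 74.7% and 72.4% in the BxD pools but 32.9% and 22.2% in the DxB pools. With strain as a covariate the log2 ratio was -0.02 (SE 0.26). An exact sign-flip permutation test over the 4 pools, two-sided, gave p = 0.125 for the D share against 50%, which is the smallest p that 4 pools allow.

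**Figure D2:**
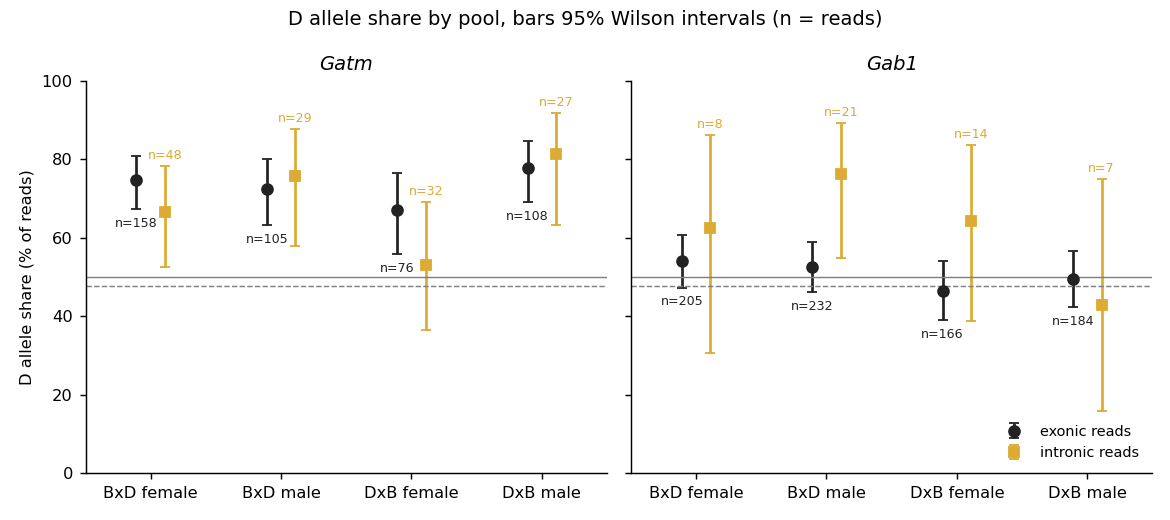
D allele share (vertical axis, percent of reads) of Gatm and Gab1 in each pool for exonic reads (black circles) and intronic reads (yellow squares), with 95% Wilson intervals and the number of reads. The solid line is 50% and the dashed line the 47.6% median of all genes with at least 10 exonic reads; exonic Gatm intervals lie above both lines in all 4 pools, while exonic Gab1 intervals cover them.

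Over the 4 pools, all 6 exonic SNPs of Gatm had more D than B reads, with D shares between 63.6% and 76.1%, from the first exon to the last exon 16196 bp away. At both ends the intervals covered 50%, with 5 B and 12 D reads in exon 1 (46.9% to 86.7%) and 4 B and 7 D reads at the SNP nearest the 3′ end (35.4% to 84.8%). Exon 4, with the deepest SNP (chr2:122428331), had 53 B and 169 D reads, a share of 76.1% (70.1% to 81.3%). Exon 6 had 18 B and 50 D reads, 73.5% (62.0% to 82.6%), and the last exon 42 B and 98 D reads over 3 SNPs, 70.0% (62.0% to 77.0%). The intervals of the 4 exons overlapped one another. The 3 coding SNPs printed above held 391 of the reads and gave 73.9% D (69.3% to 78.0%), while the 3 SNPs in untranslated regions held 56 reads and gave 71.4% (58.5% to 81.6%). By cross, these untranslated SNPs gave 78.9% D in BxD pools (63.7% to 88.9%, 38 reads) and 55.6% in DxB pools (33.7% to 75.4%, 18 reads), with 3 B and 2 D reads in DxB females.

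Intronic reads of Gatm leaned the same way with fewer reads. The 34 counted intronic SNPs had 16 B and 32 D reads in BxD females, 7 and 22 in BxD males, 15 and 17 in DxB females and 5 and 22 in DxB males. The D share was thus 66.7%, 75.9%, 53.1% and 81.5%, and the DxB female pool was the one whose interval (36.4% to 69.1%) reached below 50%. Over the pools 93 of 136 reads were D, 68.4% (60.2% to 75.6%), with a log2 ratio of 1.25 (SE 0.35, edgeR adjusted p = 0.00563, against 11.4% of 9698 genes past the threshold in introns and 4.19% higher from D). When the pool entered the fit as a block, pairing alleles from the same animals, the ratio was 1.24 and the adjusted p was 0.0623. Of the intronic SNPs, 2 lay in an exon of another annotated Gatm transcript, and without them the D share was 67.5% (58.6% to 75.3%) of 117 reads. In DxB females the direction then turned, with 15 B and 14 D reads (48.3% D). The deepest intronic SNP, with 8 B and 19 D reads, lies at the splice site next to exon 6, so some reads can be counted both there and in the exon.

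**Figure D3:**
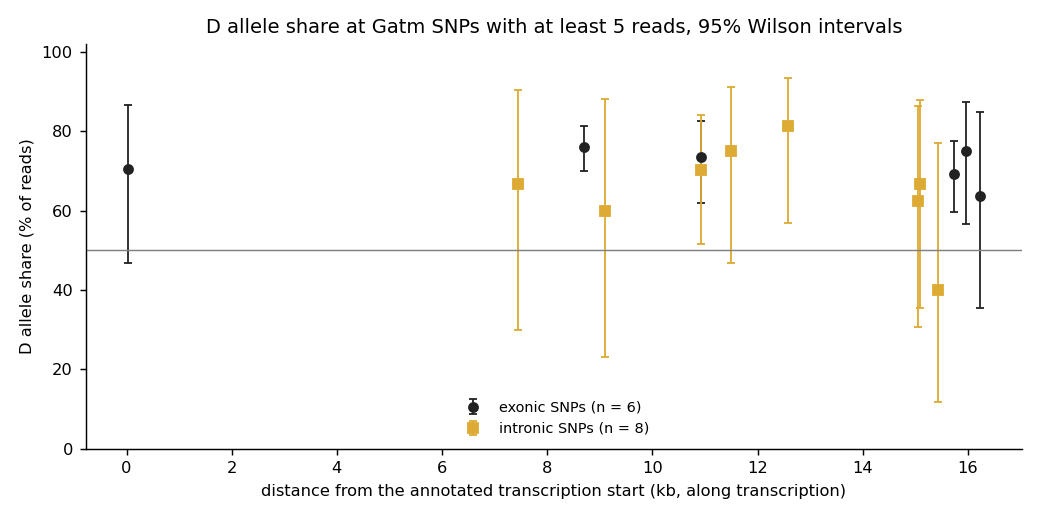
D allele share (vertical axis, percent of reads summed over the 4 pools) at Gatm SNPs with at least 5 reads against the distance from the annotated transcription start in kb, for 6 exonic SNPs (black circles) and 8 intronic SNPs (yellow squares), with 95% Wilson intervals. All 6 exonic SNPs and 7 of the 8 intronic SNPs lie above the 50% line.

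Gab1 (ENSMUSG00000031714.8, chr8:83288333-83404378, minus strand) was the best covered of the 6 genes and was read from both alleles in every pool. BxD females had 94 B and 111 D exonic reads, BxD males 110 and 122, DxB females 89 and 77, and DxB males 93 and 91. The D allele was higher in both BxD pools and the B allele in both DxB pools, so that paternal reads led in 4 of 4 pools, by a narrow margin. The paternal share ran from 50.5% to 54.1%, with a mean of 52.7% ± 1.59 (SD, n = 4 pools), and the exact sign-flip permutation test over pools gave p = 0.125, the smallest that 4 pools allow. Paternal reads numbered 415 of 787, 52.7% (49.2% to 56.2%), so a parental share above 56.2% was outside the interval at this depth. The log2 ratio of maternal to paternal was -0.16 (SE 0.19, edgeR adjusted p = 0.9998) and the log2 ratio of D to B was 0.17 (SE 0.18, edgeR adjusted p = 0.582). Under the label identity the log2 ratio of maternal to paternal was 0.05 (SE 0.20) and did not pass either.

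The exonic reads of Gab1 came from 2 SNPs of 1 exon, the first, at chr8:83403587 and chr8:83403702 in the 5′ untranslated region. The deeper SNP had 267 maternal and 310 paternal reads, 53.7% paternal (49.6% to 57.8%), and the other had 105 of each. The small paternal excess of Gab1 was therefore carried by the deeper SNP. In the introns, 26 SNPs held 50 reads, of which 33 were D (66.0%, interval 52.2% to 77.6%) and 30 were paternal (60.0%, interval 46.2% to 72.4%). The intronic log2 ratio of D to B was 1.04 (SE 0.54, edgeR adjusted p = 0.262). By pool the intronic B and D reads were 3 and 5, 5 and 16, 5 and 9, and 4 and 3 in the order given above, and no pool had more than 21 reads.

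Rasgrf1 (ENSMUSG00000032356.6, chr9:89804613-89921814, plus strand) had exonic reads of the paternal allele only. BxD females had 0 B and 7 D reads, BxD males 0 and 1, DxB females 3 and 0, and DxB males 8 and 0. The allele that was read changed with the direction of the cross, and 0 of 19 reads were maternal, which allows a maternal share of up to 15.8% by the limit of 3 counts. Both SNPs printed above took part: the first had 4 D reads in BxD and 3 B reads in DxB pools, and the second 4 D and 8 B reads. Fragments whose mates cover both SNPs can be counted more than once. The edgeR test across all genes gave an unadjusted p of 0.00617 and an adjusted p of 0.9998, and the exact sign-flip permutation test over pools gave p = 0.125.

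Shares of exactly 100% were found at low depth. Of the 6921 genes with at least 10 exonic reads, 3 were 100% paternal, Ajap1 with 10 reads, Peg12 with 14 and Rasgrf1 with 19, and 2 were entirely maternal, 4930572J05Rik and Unc45b with 13 reads each. These genes are named for their shares, after their values were seen. Some imprinted genes with more reads came close to such shares. Sgce had 2592 paternal and 28 maternal reads, Snrpn 79 and 1, Mkrn3 19 and 1, and Ndn 334 and 22. Zim1 had 2 and 249, and Meg3 1 and 112. Others did not, with 7319 paternal and 1374 maternal reads for Plagl1, 2800 and 344 for Trappc9, and 1325 and 2692 for H13. The numbers were 69 and 108 for Igf2, 101 and 78 for Ube3a, 54 and 62 for Nap1l4, and 22 and 34 for Asb4. Nap1l4 had 116 B and 0 D reads, so its parental numbers only repeat the B reads of each cross and say nothing on parent. Igf2 had 152 B and 25 D reads, and both genes passed the strain test in edgeR. Ppp1r9a, with 8 and 8, and Kcnq1, with 1 and 1, had fewer reads than Rasgrf1. Under the label identity 15 of the 19 Rasgrf1 reads would be paternal (78.9%).

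The introns of Rasgrf1 did not show the complete bias of its exon. At 13 intronic SNPs spread over 29027 bp, BxD females had 3 B and 11 D reads, BxD males 2 and 4, DxB females 5 and 2, and DxB males 3 and 7. Paternal reads led in 3 of 4 pools and maternal reads in DxB males, so that 23 of 37 reads were paternal, 62.2% (46.1% to 75.9%). The exonic interval (83.2% to 100%) and the intronic interval did not overlap. The intronic log2 ratio of maternal to paternal was -0.58 (SE 0.66, edgeR adjusted p = 0.9999), against 0.0309% of 9698 genes past the threshold. Of the 13 SNPs, 6 had more paternal, 3 more maternal and 4 equal reads.

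**Figure D4:**
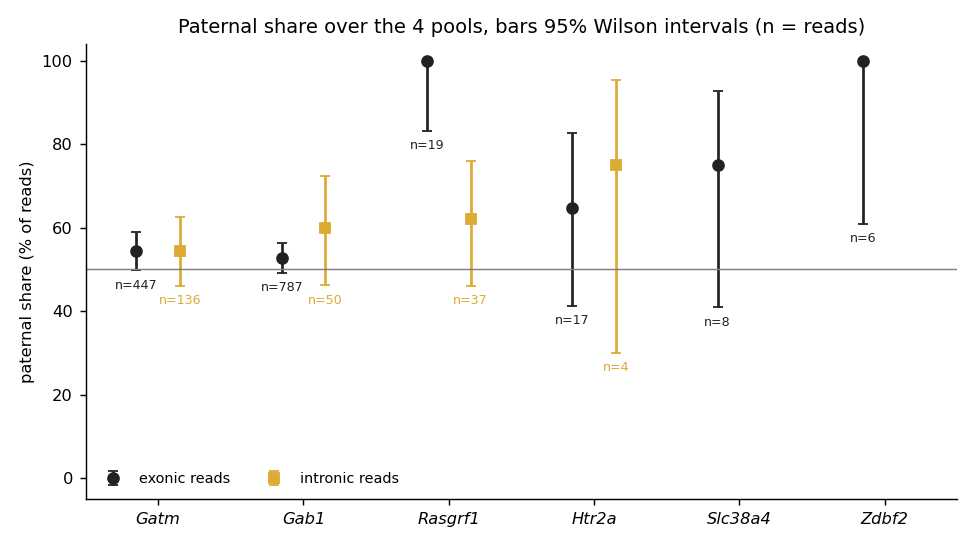
Paternal share (vertical axis, percent of reads summed over the 4 pools) of the 6 genes for exonic reads (black circles) and intronic reads (yellow squares), with 95% Wilson intervals and the number of reads; Slc38a4 and Zdbf2 had no intronic SNP reads. The exonic intervals of Rasgrf1 (from 83.2%) and Zdbf2 (from 61.0%) lie above 50%, and that of Gab1 (49.2% to 56.2%) covers it.

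Zdbf2 (ENSMUSG00000027520.8, chr1:63319839-63361150, plus strand) also had exonic reads of the paternal allele only, and far fewer of them. BxD females had 0 B and 3 D reads, BxD males 0 and 1, DxB females 2 and 0, and DxB males none. All 6 reads, at 3 SNPs, were paternal, which allows a maternal share of up to 50% by the limit of 3 counts. The synonymous SNP chr1:63351008 had 2 D reads and the SNP chr1:63359237 of the 3′ untranslated region 1 D read, all in BxD females. The change of allele with the cross rests on 1 SNP of the 3′ untranslated region, chr1:63359360, with 1 D read in BxD males and 2 B reads in DxB females. The edgeR unadjusted p was 0.0339 and the adjusted p was 0.9998. Only 3 pools carried reads, and the exact sign-flip permutation test over them gave p = 0.25, the smallest that 3 pools allow. Under the label identity 3 of the 6 reads would be paternal.

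Htr2a (ENSMUSG00000034997.4, chr14:75040647-75106666, plus strand) was read from both alleles and both parents at a very low level. The 7 exonic SNPs, all in the 5′ untranslated region, had 2 B and 5 D reads in BxD females, 3 and 3 in BxD males, 2 and 0 in DxB females, and 1 and 1 in DxB males. Paternal reads numbered 11 of 17, 64.7% (41.3% to 82.7%), and 3 intronic SNPs added 4 reads, all B. The log2 ratio of maternal to paternal was -0.83 (SE 0.80, edgeR adjusted p = 0.9998), and a difference was not detectable at this depth. Under the label identity 9 of the 17 reads would be paternal (52.9%).

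Slc38a4 (ENSMUSG00000022464.6, chr15:96825254-96886387, minus strand) was seen at a single SNP of its 3′ untranslated region, chr15:96827391. BxD females had no read, BxD males 2 B reads, DxB females 5 B reads and DxB males 1 B read. No read carried the D base, and 0 of 8 allows a D share of up to 37.5%. By parent, 6 of the 8 were paternal and 2, those of BxD males, were maternal, 75% paternal (40.9% to 92.9%). The log2 ratio of maternal to paternal was -1.40 (SE 1.45) and turned to 0.62 (SE 1.47) under the label identity and to 0.69 (SE 1.66) without the DxB female pool, and it did not pass in edgeR in any of these fits. The strain test gave an unadjusted p of 0.0322 and an adjusted p of 0.135 in edgeR. An absence of D reads was common in these counts, since 343 of the 6921 genes with at least 10 exonic reads had none, whereas 21 had no B read. From B reads alone, a silent D allele and a site that does not differ between the strains cannot be told apart. Where the authors sequenced D DNA at SNPs of this kind, every site tested carried the B base. The Slc38a4 SNP was not among those sites.

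The sex of the pools moved neither the level nor the allelic ratio of these genes past the threshold. For Gatm the exonic reads of both alleles summed to 37.1 CPM in BxD females, 25.3 in BxD males, 18.5 in DxB females and 32.2 in DxB males, so the 2 female pools enclosed the 2 male pools. The log2 ratio of males to females was 0.14 (SE 0.29, edgeR adjusted p = 0.938). For Gab1 the values were 48.2, 55.8, 40.4 and 54.9 on the same scale, and both male pools lay above both female pools, with a log2 ratio of 0.40 (SE 0.20, edgeR adjusted p = 0.491). None of the 6 genes passed, against 2.79% of the 7990 genes, and 0 of the 6 had an unadjusted p under 0.05 in edgeR or DESeq2. Wt1 was at 82.7 and 43.0 CPM in the female pools and at 20.7 and 15.8 CPM in the male pools, and its part in these levels was not tested. Levels are not compared between genes here, because the reads depend on the number and place of SNPs. For the D to B ratio, the difference between male and female pools was 0.26 on the log2 scale for Gatm (SE 0.50, edgeR adjusted p = 0.9999) and 0.05 for Gab1 (SE 0.31, edgeR adjusted p = 0.9999). No gene of the 7990 passed this test in edgeR or DESeq2 (0%), and 99 had an unadjusted p under 0.05 in edgeR.

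The genes most like Gatm and Gab1 in D share were sought among the 5454 genes with at least 10 exonic reads in every pool, a number that includes Gatm and Gab1. For Gatm they were Snx26, Dnase1l3 and Gpt2, whose D shares stayed within 4.32, 4.95 and 5.52 percentage points of Gatm in all 4 pools. Gpt2, an alanine aminotransferase, had D shares of 69.2%, 68.2%, 68.3% and 72.4% in the 4 pools. For Gab1 they were Osbpl8, Nid2 and Sh3bp1, within 0.450, 1.39 and 1.80 points.

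The pathway partners of the 6 genes were taken from 5 lists, of which 24 of 51 different genes had exonic reads. For strain 7 of the 24 passed the threshold (29.2%), 3 higher from D and 4 from B, against 17.7% of all genes, and 0 of the 24 passed for parent of origin or had an unadjusted p under 0.05 in edgeR or DESeq2. The median log2 ratio of D to B over the 24 was -0.07, against -0.02 over all genes. Of the creatine genes, 1 of 2 passed: Ckb, the brain-type creatine kinase, had 374 B and 93 D reads (log2 ratio -1.88, SE 0.28, edgeR adjusted p = 0.000414), the opposite direction to Gatm. Of 9 Gab1 signalling partners 3 passed. Gab2, a related adaptor, was higher from D with 623 B and 772 D reads (log2 ratio 0.45, SE 0.13, edgeR adjusted p = 0.0293), and the adaptor Crk was higher from B with 1303 and 954. Sos1, a Ras exchange factor, had 17 B reads and 0 D reads, so the limit given for B reads alone holds for it. Of 6 Ras and Ras exchange genes Sos1 and Rasgrp1 passed, the latter with 1 B and 15 D reads. Of 2 serotonin genes Slc6a4, the serotonin transporter, passed with 84 B and 300 D reads (log2 ratio 1.91, SE 0.60, edgeR adjusted p = 0.0479). Of 6 transporters related to Slc38a4, Slc38a7 passed with 54 B reads and 0 D reads, and the same limit holds. The authors raised a concern that errors at such sites could give false calls in genes with several exonic SNPs too. The SNPs of Ckb and the other list genes were not examined singly here. As a reference for the parental test, 4 of 15 other imprinted genes passed it, 2 maternal and 2 paternal. With the pool as a block, or under the label identity, 0 of the 7990 genes passed it in edgeR, and 37 and 38 had an unadjusted p under 0.05. In the main fit Snrpn did not pass with 1 maternal and 79 paternal reads (edgeR adjusted p = 0.914). Neither did Zim1 with 249 and 2 (edgeR adjusted p = 0.0533) nor Ndn with 22 and 334 (edgeR adjusted p = 0.757). Mkrn3, with 1 and 19, did not pass either (edgeR adjusted p = 0.9998). A gene read almost only from 1 parent can thus miss the threshold of this test.

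Exonic reads were counted for 31 genes within 500 kb of a member. None of them passed for parent of origin or had an unadjusted p under 0.05 in edgeR or DESeq2 (0 of 31), while 7 passed for strain (22.6%, against 17.7% of all genes), 5 higher from D and 2 from B. Near Gatm, 2 of 14 neighbours passed, both higher from D like Gatm itself: Duox1, a dual oxidase, with 264 B and 465 D reads (63.8% D), and Pldn, of lysosome-related organelle assembly, with 645 and 838 (56.5% D). Near Gab1, Usp38, a deubiquitinase, was higher from D with 1134 and 1714 reads (60.2% D, edgeR adjusted p = 0.000495), whereas Gab1 had 51.0% D. Near Rasgrf1, Tbc1d2b was higher from B with 356 and 92 reads (20.5% D) and Adamts7, a secreted protease, higher from D with 246 and 340 (58.0% D). Near Htr2a, Esd, esterase D, had 8 B and 43 D reads (84.3% D), and near Zdbf2, Ino80d, of the INO80 chromatin remodelling complex, had 44 B and 2 D reads (4.35% D). None of the 4 neighbours of Slc38a4 passed. The SNPs of the neighbours, Tbc1d2b and Ino80d among them, were not examined singly either.

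**Figure D5:**
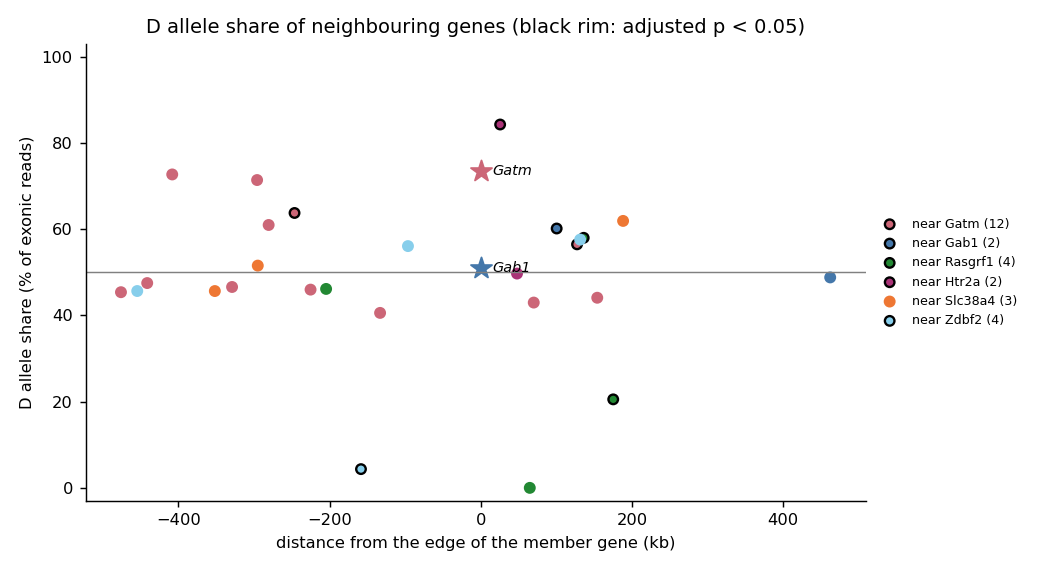
D allele share (vertical axis, percent of exonic reads over the 4 pools) of the 27 neighbouring genes with at least 10 reads against their distance in kb from the edge of the member gene, coloured by member, with a black rim where the strain test passed and stars for Gatm and Gab1. Neighbours of Gatm lie on both sides of 50%, and those plotted all lie below the star of Gatm (73.6%).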

How the data were processed

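RNA from gonadal fat was sequenced in 4 pools. The values deposited by the authors are raw, unnormalized counts of reads for each allele at each SNP. They treated the mates of 50 bp pairs as single reads, aligned them with mrsFAST and TopHat to mm9, kept uniquely mapped reads and counted alleles at known B and D variants. The methods describe masking of the D variants in the reference as a way to lessen, not remove, a bias towards the B base. One passage of the supplement describes going on without such a correction, so the remaining bias is not settled here. Counting mates as single reads lets a fragment add more than 1 count. The authors also counted with only 1 mate of each pair and report that allele counts and fold changes were very similar.

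The members and gene lists were chosen with earlier results of these data known. Pools were identified by file name, and the labels were used as an alternative. Exonic SNPs 18 bp or less after a counted SNP of the same exon were left out, intronic SNPs likewise within a gene, and the rest were summed per gene. Genes without a read were dropped. The pools held 4254813 (BxD female), 4157360 (BxD male), 4112206 (DxB female) and 3353668 (DxB male) counted exonic reads.

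Tests used edgeR 4.0.16 (R 4.3.3) with TMM normalization and quasi-likelihood fits over all genes, with the 8 allele libraries as samples, and Benjamini-Hochberg adjustment at 0.05. Standard errors are the absolute log2 ratio over the square root of F. The alleles of a pool come from the same animals, and their deviations from the strain means correlated at 0.65, 0.10, 0.68 and 0.03 (BxD female, BxD male, DxB female, DxB male), so the pool was run as a block. DESeq2 1.42.0 and the other alternatives are given at the end. The tests were checked on simulated counts with 200 changed genes, all drawn from genes with at least 200 reads. The alleles of a pool were simulated as independent, so the check covers neither their pairing nor members with fewer reads. Shares have 95% Wilson intervals, and a share of 0 was given the limit of 3 counts. Positions and genes are from NCBIM37 (mm9) and GENCODE M1, read with Python 3.11.15 and pysam 0.24.0. The named genes are the 6 members, list genes and neighbours within 500 kb past the threshold (at most 4 per list, by smallest p), and the 3 genes closest in D share.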

Additional observations from a re-analysis of the deposited data

How the results depend on the processing

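The call of Gatm for strain held under all 15 alternatives (log2 ratio 1.49 to 1.71, adjusted p 7.12e-07 to 0.00824), although the label identity cannot change a strain test and neither all exonic SNPs nor leaving out SNPs with the same base changed its reads. For parent of origin no member passed under any alternative it was fitted in, 15 for 4 genes and 14 for Slc38a4 and Zdbf2, which fell below 10 counts. In introns the call of Gatm held under 4 of 5 alternatives (adjusted p 0.00409 to 0.0347) and not with the replicate block, where the log2 ratio was 1.24 (adjusted p = 0.0623) and 0 members passed. The cause was not tested.

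Counts over all genes moved more. For parent of origin 4 exonic genes passed, 7 with DESeq2 or with strain as a covariate, 2 with all exonic SNPs, 0 with the replicate block or the label identity, and 0 to 1 with each pool left out. In introns 3 passed, and 0 with the replicate block or the label identity. For strain 1415 passed, and 2175 with the replicate block. In introns 1105 passed, and 700 with DESeq2. For strain by sex 0 passed, and 8 under the label identity. For the level by sex 223 passed, 133 with DESeq2, 50 with at least 10 counts per gene, 0 under the label identity, and 44 (without BxD male) to 638 (without DxB female) with each pool left out, 395 without BxD female and 81 without DxB male.

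The label identity turned the parental log2 ratios of Gatm to 0.17, Gab1 to 0.046, Zdbf2 to 0.039 and Slc38a4 to 0.62, those in introns of Rasgrf1 to 0.20, Gatm to 0.43 and Gab1 to 0.23, the male to female ratios of Gatm to -0.21 and Gab1 to -0.047, and the strain by sex term of Gab1 to -0.31, none of them past the threshold. It moved the paternal share of Rasgrf1 to 78.9%, of Htr2a to 52.9%, of Zdbf2 to 50% and of Gab1 to 49.7%. With each pool left out, the parental log2 ratio of Gatm ran from -0.87 to 0.52 and its male to female ratio from -0.23 to 0.63. Chosen after the data were seen, the shallower Gab1 SNP alone gave a paternal share of 50%. The replicate block changed no other call of the 6 genes. Apart from Gatm and Gab1, depth limits each gene to 19 exonic reads or fewer. Whether any result differs between animals cannot be read from pools.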
